A study of Homo sapiens with 3 samples.

Results

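The cells described here are VCaP prostate cancer cells with the most and the least PLA2G2A mRNA after treatment with enzalutamide (ENZ), a drug given against prostate cancer that blocks androgen signalling. They came from VCaP-ENZ48, a library of VCaP cells kept for 48 h in 10 µM ENZ. Both groups were chosen by the measured share of PLA2G2A among all transcripts of a cell. Of 816 cells that passed the filter, the 163 cells with the highest share formed the PLA2G2A-high group and the 326 cells with the lowest share the PLA2G2A-low group, while 327 cells lay between them. These 489 cells were part of 2556 cells kept from the 3 libraries of the series, which held 3000 barcodes in all. The others were VCaP parental, VCaP cells kept for 48 h in 0.1% DMSO, and LNCaP-ENZ168, cells of the LNCaP prostate cancer line kept for 168 h in 10 µM ENZ. Expression was measured by Drop-seq, which tags every captured mRNA molecule with its own unique molecular identifier (UMI). Both groups share the drug, the dose, the time and the library, and each condition had 1 library of an established line. There were thus no replicates, and nothing was tested. All intervals are exact 95% intervals and cover counting error only.

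PLA2G2A encodes a secreted phospholipase A2, an enzyme that releases fatty acids and lysophospholipids from membrane phospholipids outside the cell. Arachidonic acid released in this way can feed the synthesis of prostaglandins and other eicosanoids. The enzyme is known from inflammatory fluids and from Paneth cells of the intestine, and it is also expressed in many prostate tumours.

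PLA2G2A lies on chromosome 1 of GRCh38, from 19975431 to 19980416 on the minus strand. REG4, the gene with the highest ratio between the groups, lies on the same chromosome from 119794017 to 119811580, also on the minus strand. The 250 bases before the first transcript start in the order of the RefSeq listing (GRCh38.p14) are shown for PLA2G2A, which ranked the cells, and for REG4. For PLA2G2A this start is not the outermost, and its window lies within the gene span given above. Capitals mark matches, on either strand, to 4 searched motifs. They were TGTTCT, which lies within sites of steroid receptors, the TATA box as TATAAA, the CCAAT box, and TTCNNNGAA, bound by STAT factors.
PLA2G2A, chr1:19979660-19979909, minus strand: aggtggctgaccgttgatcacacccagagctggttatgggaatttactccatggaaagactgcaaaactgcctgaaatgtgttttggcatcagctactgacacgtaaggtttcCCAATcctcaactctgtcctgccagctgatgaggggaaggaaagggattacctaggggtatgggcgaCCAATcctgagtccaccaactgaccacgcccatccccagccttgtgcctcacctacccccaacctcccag
REG4, chr1:119811461-119811710, minus strand: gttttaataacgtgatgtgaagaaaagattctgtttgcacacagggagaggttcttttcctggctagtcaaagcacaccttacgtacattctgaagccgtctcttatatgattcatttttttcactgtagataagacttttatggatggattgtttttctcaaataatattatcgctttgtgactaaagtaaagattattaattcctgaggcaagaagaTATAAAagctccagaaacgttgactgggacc
The PLA2G2A window held CCAAT 2 times, beginning 137 and 70 bases before the start, and the REG4 window held TATAAA 31 bases before it. Among 27305 windows of the same length, 1 per gene, 33.04% held CCAAT and 11.1% held TATAAA. The steroid receptor letters stood in 12.4% of windows and the STAT letters in 6.78%. Neither was in a printed window, and a further listed start of PLA2G2A had the steroid receptor letters 9 bases before it. The window of another listed start, chr1:19980435-19980684, lies beyond the gene span given above and held none of the 4 motifs. A match describes letters only.

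PLA2G2A was spread very unevenly over the treated VCaP cells. The 816 cells held 8109 PLA2G2A UMIs, or 582 CPM (UMIs of the gene per 1000000 UMIs; 95% interval 569 to 594). In 127 cells no PLA2G2A UMI was found, and the highest cell had 274 UMIs, a share of 10905 CPM. The 10 cells with the most UMIs held 20.96% of them, and the 163 PLA2G2A-high cells held 72.5%. To set this beside other genes, every cell was thinned at random to 4000 UMIs. The 20% of cells with the most PLA2G2A then held 75.03% of its UMIs, against a median of 50.5% over 546 genes of 200 to 1500 CPM. Only CRISPLD1, named here after its value was seen, had a larger share (75.3%) among these genes.

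By the rule, PLA2G2A-high cells had 3 to 274 PLA2G2A UMIs (median 22), and PLA2G2A-low cells had 0 to 9 (median 1). Summed over cells, the level was 2128 CPM (2074 to 2183) in the high group, 353 CPM (337 to 369) between the groups and 62.8 CPM (56.6 to 69.5) in the low group. These values chose the cells and are a description. The last cell inside the high group had a share of 723.3 CPM (13 of 17973 UMIs), and the first outside had 721.8 (6 of 8312 UMIs). At the other edge, the shares were 165.03 CPM outside the low group and 164.54 inside it. The cells therefore formed a continuous ranking with no gap at either limit, and the groups are ranges of it.

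**Figure D1:**
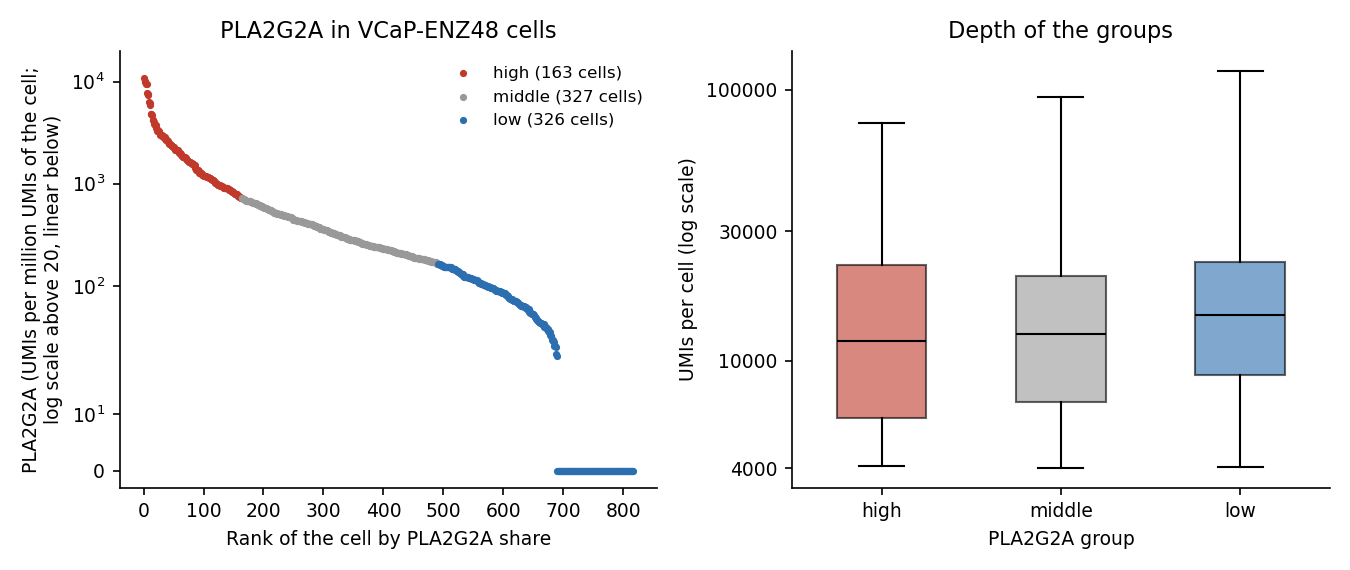
Left, the PLA2G2A share of each of the 816 VCaP-ENZ48 cells, in CPM (log scale above 20, linear below), by rank, with the PLA2G2A-high, middle and PLA2G2A-low groups in red, grey and blue. Right, UMIs per cell (log scale) in each group, with the median, quartiles and range. The shares fall from 10905 CPM to 0 with no gap at the group limits, and the medians of depth are 11800, 12520 and 14786 UMIs.

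The groups also differed in depth and in RNA composition. The median PLA2G2A-high cell had 11800 UMIs (range 4084 to 75267) and 3496 genes, and the median PLA2G2A-low cell had 14786 UMIs (4044 to 117469) and 3848.5 genes. Mitochondrial transcripts made up a median of 7.53% of UMIs per cell in the high group and 6.62% in the low group. Ribosomal protein transcripts made up 22.6% and 27.4%, in the same order. These shares moved with PLA2G2A, and their part in the differences below was not tested. VCaP-ENZ48 had 155 barcodes under the depth limit and, among the others, 29 over the mitochondrial limit. Barcodes ending in N, which the Drop-seq tools write for beads repaired after a synthesis error, made up 85.9% of the high and 84.0% of the low group. Whether such a barcode joined several beads was not tested, so some cells counted here may be more than 1 cell. The libraries shared 1 barcode per pair, and no kept cell shared its barcode with another library. PLA2G2A was at 30.8 CPM (28.4 to 33.4) in VCaP parental and at 79.8 CPM (72.6 to 87.6) in LNCaP-ENZ168. At 4000 UMIs per cell, 60.2% of VCaP-ENZ48 cells (56.7 to 63.5%) had a PLA2G2A UMI, against 7.62% (6.05 to 9.45%) of VCaP parental and 15.6% (13.1 to 18.4%) of LNCaP-ENZ168 cells. Before thinning these shares were 84.4%, 23.2% and 20.996%. Free RNA in the droplets was not measured, and its part in low PLA2G2A counts was not tested. In the low group, 106 of 326 cells had 1 PLA2G2A UMI.

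Most other genes were at nearly the same level in both groups. Ratios are log2 ratios of CPM + 1 of PLA2G2A-high over PLA2G2A-low cells, each with the interval of the plain CPM ratio. Genes were compared where the mean of the levels in the groups was 50 CPM or more. Of these 2740 genes, 2301 (83.98%) were within 1.2-fold. At least 1.5-fold higher in PLA2G2A-high cells were 31 genes, or 1.13% of those tested, and 9 genes, or 0.328%, were at least 1.5-fold lower. All 40 ratios had a counting interval on 1 side of equality, which the choice by size and level fixes in large part. Of the 31 higher genes, 9 were under 50 CPM in the low group, and of the 9 lower genes 5 were under 50 CPM in the high group, so these entered the comparison through the group in which they were higher. Scaling by the trimmed mean of M-values changed the split to 19 higher and 12 lower, and median-of-ratios scaling to 19 and 13.

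**Figure D2:**
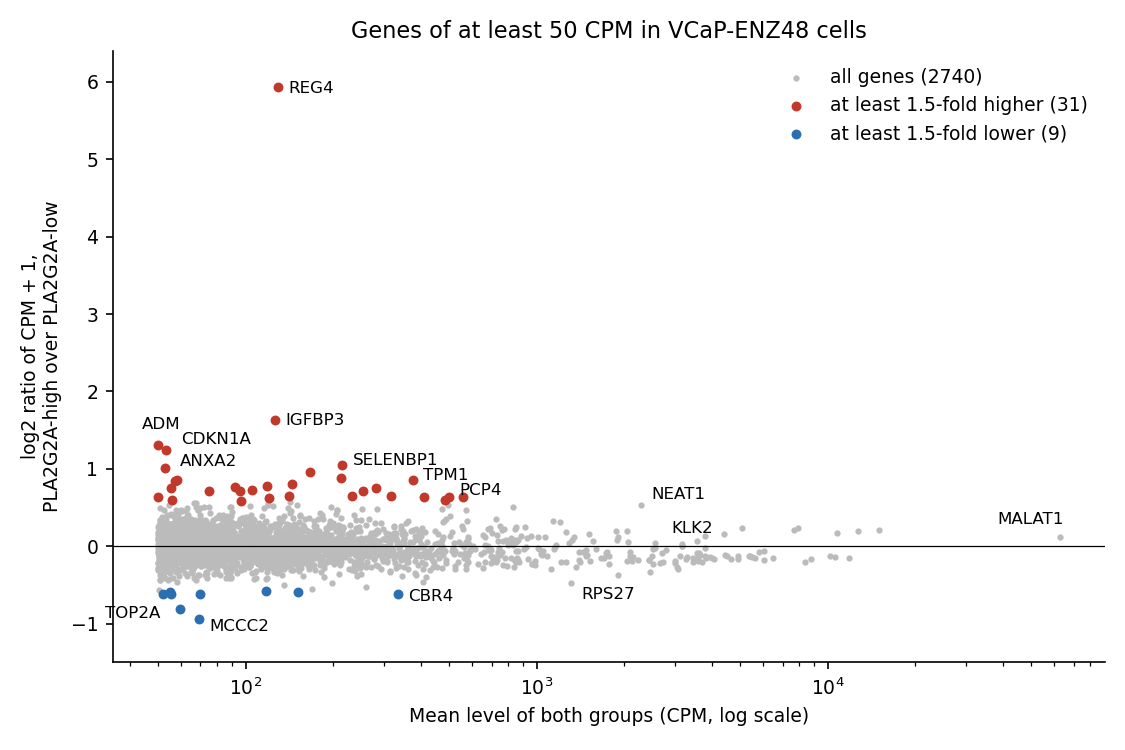
Log2 ratio of CPM + 1, PLA2G2A-high over PLA2G2A-low cells of VCaP-ENZ48, against the mean level of both groups in CPM (log scale), for 2740 genes other than PLA2G2A. The 31 genes in red were at least 1.5-fold higher and the 9 in blue at least 1.5-fold lower, REG4 stands apart at 5.93, and most genes lie near 0.

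REG4, a secreted lectin of the regenerating gene family that marks enteroendocrine and other secretory cells of the gut, was the gene with the highest ratio, and it reached the minimum level through the high group alone. It was at 256 CPM (238 to 276, 707 UMIs) in PLA2G2A-high cells and at 3.22 CPM (1.94 to 5.02, 19 UMIs) in PLA2G2A-low cells, a log2 ratio of 5.93 (5.66 to 7.06). The cells between the groups had 16.03 and 17.7 CPM in their upper and lower parts. VCaP parental had 1.84 CPM and LNCaP-ENZ168 3.39 CPM over all kept cells. Most of the REG4 signal came from few cells. A REG4 UMI was found in 35 of 163 high cells (21.5%, 15.4 to 28.6%), 39 of 327 middle cells (11.9%, 8.62 to 15.9%) and 15 of 326 low cells (4.60%, 2.60 to 7.48%). With every cell at 4000 UMIs the shares were 14.1% (9.16 to 20.4%) in the high and 2.15% (0.868 to 4.37%) in the low group. The 2 cells with the most REG4, both in the high group, had 273 and 199 of the 707 UMIs. The first of these had 50 PLA2G2A UMIs among 27796 and the second 192 among 50728, and the second also held 353 TPM1 and 82 IGFBP3 UMIs.

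At least 3 REG4 UMIs were found in 27 cells, of which 19 were PLA2G2A-high, 7 lay between the groups and 1 was PLA2G2A-low. These 27 cells held 91.3% of all REG4 UMIs of the library. The 19 were deeper than the high group as a whole, with a median of 20802 UMIs, and the part of depth in this was not tested. Within the high group, the 19 such cells had PLA2G2A at 2251 CPM and the remaining 144 cells at 2104 CPM. Both sets were chosen by their PLA2G2A share, so these 2 values are a description only. Several other genes were higher in the 19 cells. TPM1, an actin-binding tropomyosin, was at 1214 CPM there against 338 CPM in the 144 cells, and 1 cell held 353 of its 1335 UMIs. IGFBP3, which binds insulin-like growth factors, was at 524 against 125 CPM, and AGR2, a disulfide isomerase of mucus-secreting epithelia, at 1059 against 587 CPM. KLK2, a secreted kallikrein of luminal prostate cells, was at 3052 and 3193 CPM, and SELENBP1 was at 219.7 and 305 CPM. Without the 27 cells, a choice made after seeing the data, the log2 ratio of REG4 between newly ranked groups was 1.45, that of IGFBP3 1.04 and that of TPM1 0.35. NR4A1, an immediate early nuclear receptor, moved from 0.71 to 0.31 and TXNL1, a thioredoxin-like protein, from 0.76 to 0.51. With these cells left out, 25 genes were at least 1.5-fold higher, 20 of them among the 31.

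**Figure D3:**
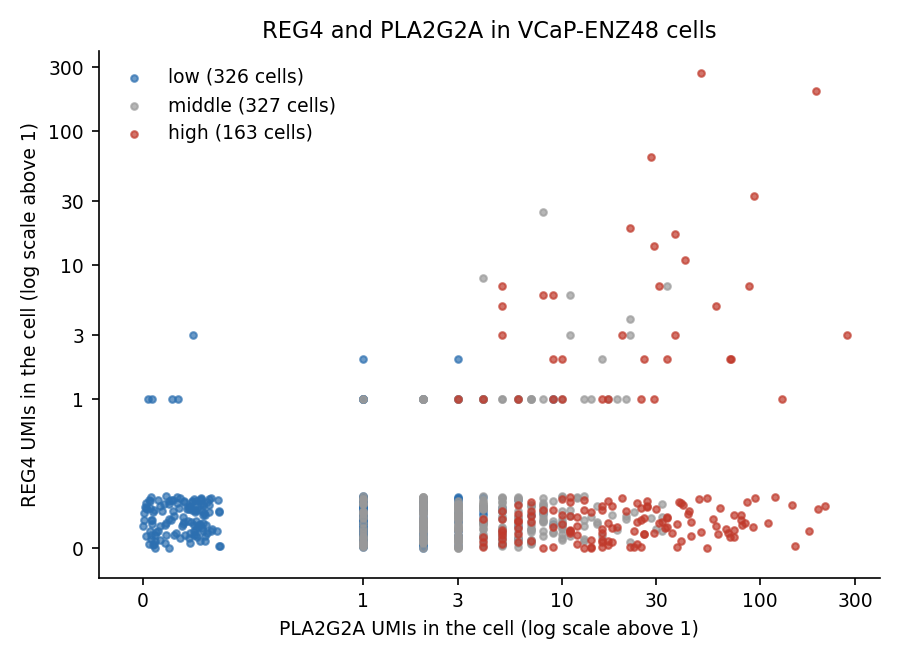
REG4 UMIs against PLA2G2A UMIs in each of the 816 VCaP-ENZ48 cells (both axes log above 1, counts of 0 spread slightly), with PLA2G2A-high cells in red, middle cells in grey and PLA2G2A-low cells in blue. Cells with REG4 counts of 3 or more are mostly red, and most red cells have no REG4 UMI.

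Some of the 31 genes encode secreted or matrix proteins. IGFBP3 was at 191 CPM (175 to 208) against 61.3 CPM (55.1 to 67.9), a log2 ratio of 1.63 (1.45 to 1.84). At 4000 UMIs it was found in 41.7% (34.1 to 49.7%) of high and 18.4% (14.3 to 23.0%) of low cells, against 62.0% and 51.5% before thinning. FBLN2, a fibulin of the extracellular matrix, was at 275 against 149 CPM (0.88, 0.74 to 1.02) and was found in 62.0% and 37.4% of thinned cells (87.1% and 74.8% before thinning). THBS1, thrombospondin 1, was at 75.3 against 41.1 CPM (0.86, 0.60 to 1.15). ADM, which encodes the vasoactive peptide adrenomedullin, was at 71.7 against 28.4 CPM (1.30, 1.03 to 1.64), and 1 high cell held 31 of its 198 UMIs. In the list of matricellular and signalling genes, 7 members were tested, 3 were at least 1.5-fold higher (1.13% over all genes tested), none lower, and all 7 were above the median of all genes, with a median log2 ratio of 0.35 against 0.00082 over all genes tested. CCN3, a matricellular member of the CCN family, was at 351 against 294 CPM (0.26, 0.14 to 0.37).

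Others of the 31 genes act at membranes or on the cytoskeleton. ANXA2, a calcium-dependent membrane-binding annexin, was at 71.0 against 34.7 CPM (1.01, 0.74 to 1.32). TSPAN1, an epithelial tetraspanin, was at 150.3 against 87.0 CPM (0.78, 0.60 to 0.98). MYRIP, which links Rab27 vesicles to myosin, was at 73.9 against 40.6 CPM (0.85, 0.59 to 1.14). These 3 genes were found in 25.2%, 37.4% and 26.4% of thinned high cells and in 13.2%, 29.1% and 12.6% of thinned low cells. Before thinning, the shares were 52.8%, 72.4% and 53.4% against 39.6%, 57.98% and 37.4%. TPM1 differed in sum, 483 against 268 CPM (0.85, 0.75 to 0.96), but less in how many cells had it, 68.7% (61.0 to 75.7%) against 62.9% (57.4 to 68.1%) after thinning and 89.6% against 90.5% before. Without the highest cell of each group its log2 ratio was 0.44.

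Among genes of the cell interior, CDKN1A, which encodes the cell cycle inhibitor p21, was at 75.3 against 31.3 CPM (1.24, 0.97 to 1.56). SELENBP1, a selenium-binding protein that oxidizes methanethiol, was at 291 against 139.5 CPM (1.05, 0.92 to 1.202). H2AC6, a histone H2A gene, was at 219 against 113 CPM (0.96, 0.80 to 1.12). RCAN3, a regulator of calcineurin, was at 116 against 67.7 CPM (0.77, 0.56 to 0.99), and TXNL1 at 352 against 208 CPM (0.76, 0.64 to 0.88). In the lysosome and autophagy list, 11 members were tested and all 11 were above the median of all genes, with a median of 0.18. CTSH, a lysosomal protease, was at 268 against 203 CPM (0.40, 0.27 to 0.54).

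Other enzymes of the same family and its pathway showed smaller differences. In the list of phospholipase A2 enzymes, 24 of 32 genes were in the file, 4 passed 50 CPM and none passed 1.5-fold, with a median of 0.10. PLA2G7, which hydrolyses platelet-activating factor, was at 79.7 against 64.8 CPM (0.29, 0.05 to 0.54), and PLAAT3, an intracellular phospholipase, at 222 against 187 CPM (0.25, 0.11 to 0.40). Of eicosanoid enzymes and receptors 7 were tested and none passed 1.5-fold, with a median of -0.057. CBR1, a carbonyl reductase that acts on prostaglandins, had a log2 ratio of 0.25, and LTA4H, which makes leukotriene B4, one of -0.24. In lysophospholipid and fatty acyl remodelling, 7 were tested with a median of -0.022 and none past 1.5-fold. MBOAT7, which returns arachidonic acid to phosphatidylinositol, was at 163 against 121 CPM (0.43, 0.26 to 0.61).

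Inflammatory genes were low in both groups. No NF-kB target or acute phase gene and no interferon-stimulated gene reached 50 CPM. The 11 NF-kB targets found summed to 108 CPM in the high and 67.0 CPM in the low group. Of these, CCL2, a chemokine named after its value was seen, had 83 UMIs in the high group, and 1 cell held 81 of them. The 25 interferon-stimulated genes summed to 239 and 182 CPM (log2 ratio 0.39, 0.25 to 0.54). B2M, the light chain of MHC class I, was at 527 against 424 CPM (0.31, 0.22 to 0.41).

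Fewer genes were lower in PLA2G2A-high cells. MCCC2, a subunit of the mitochondrial carboxylase of leucine breakdown, was at 47.1 CPM (39.3 to 55.9) against 90.9 CPM (83.4 to 98.9), a log2 ratio of -0.93 (-1.24 to -0.67). CBR4, a mitochondrial reductase of fatty acid synthesis, was at 263 against 405 CPM (-0.62, -0.75 to -0.50) and was found in 53.99% (46.0 to 61.8%) of thinned high and 71.2% (65.9 to 76.0%) of thinned low cells (82.8% and 95.1% before thinning). MT1X, a metallothionein, was at 43.8 against 66.2 CPM (-0.58, -0.90 to -0.30). RPS27AP16, an expressed ribosomal protein pseudogene whose reads may be shared with its parent gene, was at 93.8 against 141 CPM, and AC090602.1, a gene with an accession-style name, at 40.9 against 63.2 CPM.

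NASP, a histone chaperone, was at 43.5 against 67.4 CPM (-0.62, -0.94 to -0.33), and ATAD2, a bromodomain ATPase of replicating cells, at 55.0 against 84.8 CPM (-0.61, -0.90 to -0.36). SMC4, a condensin subunit, was at 121 against 183 CPM (-0.60, -0.78 to -0.42). TOP2A, the topoisomerase of mitotic cells, was at 42.7 against 75.9 CPM (-0.81, -1.13 to -0.53), yet 11.7% (7.17 to 17.6%) of thinned high cells and 8.90% (6.04 to 12.5%) of thinned low cells had a TOP2A UMI (22.7% and 18.4% before thinning). Along the ranking its highest level, 201 CPM, was in the second bin of 20% of cells, just outside the high group. With the top 40% of cells in place of the top 20%, its log2 ratio was 0.67, in the opposite direction. All 7 tested S phase genes were below the median of all genes, 2 of them past 1.5-fold downward (0.328% over all genes tested), with a median of -0.27. Of 10 G2M genes, 9 were below it and 2 past 1.5-fold, with a median of -0.35. Without barcodes ending in N, which left 24 high and 48 low cells, the G2M median was 0.19. Summed over all 54 G2M genes found, the level was 1344 against 1774 CPM. The median share of G2M genes per cell was nearly equal, 0.1018% of UMIs in high and 0.1023% in low cells. The highest cell had 1.10% in the high and 4.92% in the low group. For S phase genes the medians per cell were 0.0712% and 0.0805%. MKI67, a marker of proliferating cells, was at 7.97 against 21.5 CPM (-1.33, -2.16 to -0.77), found in 11 of 163 and 27 of 326 cells, and 1 low cell held 28 of its 127 UMIs there. Without the most cycling 20% of cells its log2 ratio was 0.71, in the opposite direction.

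Luminal identity and most androgen-responsive genes were at similar levels in both groups. KLK2 was at 3170 CPM (3103 to 3237) in PLA2G2A-high and 3148 CPM (3103 to 3194) in PLA2G2A-low cells, a log2 ratio of 0.01. Of 16 androgen-induced genes tested, none passed 1.5-fold in either direction, with a median of -0.0018. Of 3 androgen-repressed genes tested, 2 passed it upward (1.13% over all genes). OPRK1, an opioid receptor, was at 119 against 72.0 CPM (0.72, 0.52 to 0.94), and CAMK2N1, an inhibitor of the kinase CaMKII, at 385 against 246 CPM (0.64, 0.53 to 0.76). The third, FOLH1, which encodes prostate-specific membrane antigen, was at 743 against 659 CPM (0.17, 0.09 to 0.25). KLK3, which encodes prostate-specific antigen, was at 11.2 (7.63 to 15.9) and 9.31 CPM (7.02 to 12.1), and those intervals overlap. ERG, carried in VCaP by a gene fusion, was at 55.0 and 62.0 CPM (-0.17, -0.45 to 0.11).

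Luminal markers were present in both groups, and markers of basal cells and leukocytes were near 0. All 12 luminal genes were found, 10 were tested, and their median was 0.14. The 5 basal genes found summed to 2.54 CPM in the high and 1.19 CPM in the low group, and the 5 leukocyte genes to 2.90 and 1.52 CPM. CD14 held 7 of the 8 leukocyte UMIs in the high and 8 of the 9 in the low group. PTPRC and HLA-DRA of the leukocyte list and VIM, a mesenchymal filament, had no UMI in either group. There, 3 counts would be 1.09 CPM in the high and 0.508 CPM in the low group. The 6 genes found for fibroblasts and endothelium summed to 26.1 and 29.0 CPM, nearly all of it LUM. Of 11 neuroendocrine genes found, 2 were tested. CHGB, a granin of secretory granules, was at 239 against 173 CPM (0.46, 0.32 to 0.61), and SCG3, another granin, at 151 against 152 CPM. MME, the surface peptidase neprilysin, named after its value was seen, was at 40.2 (33.1 to 48.4) against 11.01 CPM (8.49 to 14.03), and at 2626 CPM in LNCaP-ENZ168. Of its 111 UMIs in the high group, 61 were in the 19 cells with at least 3 REG4 UMIs. Its log2 ratio was 1.78, and 0.82 without cells of at least 3 REG4 UMIs. The other 3 genes listed for the LNCaP line were each below 3 CPM.

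Ribosomal protein and nuclear-encoded respiratory chain genes were slightly lower as lists in PLA2G2A-high cells, and mitochondrially encoded genes slightly higher. Of 81 cytosolic ribosomal protein genes, 76 were below the median of all genes, with a median of -0.16, and none passed 1.5-fold. RPS27 had the lowest ratio of them, 1103 against 1529 CPM (-0.47, -0.53 to -0.41). Of 71 nuclear-encoded respiratory chain genes, 61 were below it (median -0.10), as were 45 of 61 mitochondrial ribosomal protein genes (median -0.061). Of 16 mitochondrially encoded genes, 15 were above it, with a median of 0.17. The nuclear RNA NEAT1 was at 2708 against 1868 CPM (0.54, 0.49 to 0.58) and MALAT1 at 65377 against 60085 CPM (0.12, 0.11 to 0.13). The mitochondrial and ribosomal shares per cell given above moved with these groups of genes.

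The remaining lists are described by their tested members, beside a median of 0.00082 and an upper quartile of 0.13 over all genes. Members past 1.5-fold stand beside 1.13% of all genes tested upward and 0.328% downward. The list of AP-1 and dissociation response genes had 14 tested members, 1 past 1.5-fold upward (NR4A1) and a median of 0.19. EGR1, an immediate early factor, was at 235 against 175 CPM. In the ATF4 amino acid response 9 were tested and none passed, with a median of 0.23, and NUPR1, a stress-induced chromatin protein, was at 639 against 511 CPM. ER chaperones and secretory pathway genes had a median of 0.045 over 33 members, glycolysis and hypoxia genes 0.034 over 13, Wnt targets 0.054 over 2, general reference genes -0.065 over 12, and cholesterol and fatty acid synthesis genes -0.14 over 11. In the gut-type secretory list 3 were tested with a median of 0.47, REG4, AGR2 (665 against 479.8 CPM, 0.47) and TSPAN8, a gut tetraspanin (733 against 627 CPM, 0.22). S100 proteins and annexins had a median of 0.15 over 5 members, with ANXA2 past 1.5-fold. Metallothioneins and zinc transport genes had a median of -0.15 over 6, with MT1X past 1.5-fold downward. Secreted proteins other than these had a median of 0.19 over 7, and CLU, the chaperone clusterin, was at 297 against 233 CPM. Among signatures given with the study, those of cell clusters were derived from LNCaP cells and resistant lines made from them, not from VCaP. PROSGenesis had a median of 0.19 over 25 members, 23 of them above the median of all genes. The ENZ-induced clusters had a median of 0.072 over 109 members, the initial clusters -0.013 over 94, the persistent clusters -0.059 over 216 and Persist 0.045 over 3. All 17 Persist genes found summed to 649 CPM in the high and 731 CPM in the low group (log2 ratio -0.17, -0.25 to -0.09). Among the tested members of these signatures, 2 of PROSGenesis, 4 ENZ-induced, 1 initial and 2 persistent were at least 1.5-fold higher, beside 1.13% over all genes. At least 1.5-fold lower were 5 persistent members, beside 0.328% over all genes.

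**Figure D4:**
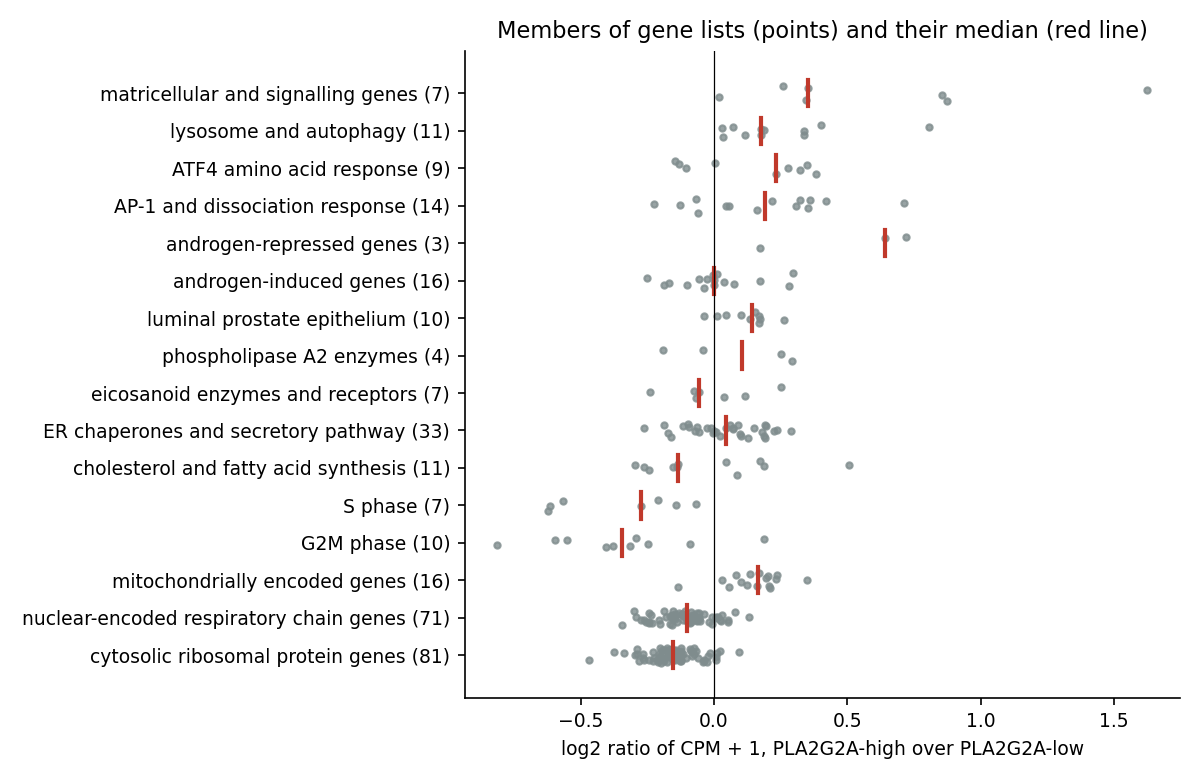
Log2 ratio of CPM + 1, PLA2G2A-high over PLA2G2A-low cells of VCaP-ENZ48, for the tested members of 16 gene lists (points; number tested in parentheses) with the median of each list (red line). REG4 belongs to none of the lists shown. Medians run from -0.35 for G2M genes to 0.64 for 3 androgen-repressed genes, and ribosomal protein genes lie mostly below 0.

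Levels along the whole ranking show how gradual each difference was. The cells were split into bins of 163 or 164 cells, of which the first was the PLA2G2A-high group and the last 2 together the PLA2G2A-low group. Of the 31 higher genes, 30 had their highest level in the first bin and 16 fell at every step. The genes were chosen by the first bin against the last 2, so this order is in part fixed by that choice. FBLN2 was at 275, 235, 226, 157 and 140.0 CPM from the first to the last bin. SELENBP1 was at 291, 281, 193, 144 and 133 CPM. IGFBP3 stepped down at once, from 191 to 92.8, 89.9, 65.0 and 56.6 CPM. CAMK2N1 was as high in the second bin as in the first, with 385 and 387 CPM, and then at 278, 267 and 221 CPM. CDKN1A was at 75.3, 65.3, 59.4, 25.2 and 39.0 CPM. Of the 9 lower genes, chosen by the same bins, 8 had their lowest level in the first bin and none rose at every step. CBR4 was at 263, 293, 382, 411 and 398 CPM. KLK2 showed no order along the ranking, with 3170, 2761, 3017, 3228 and 3049 CPM.

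**Figure D5:**
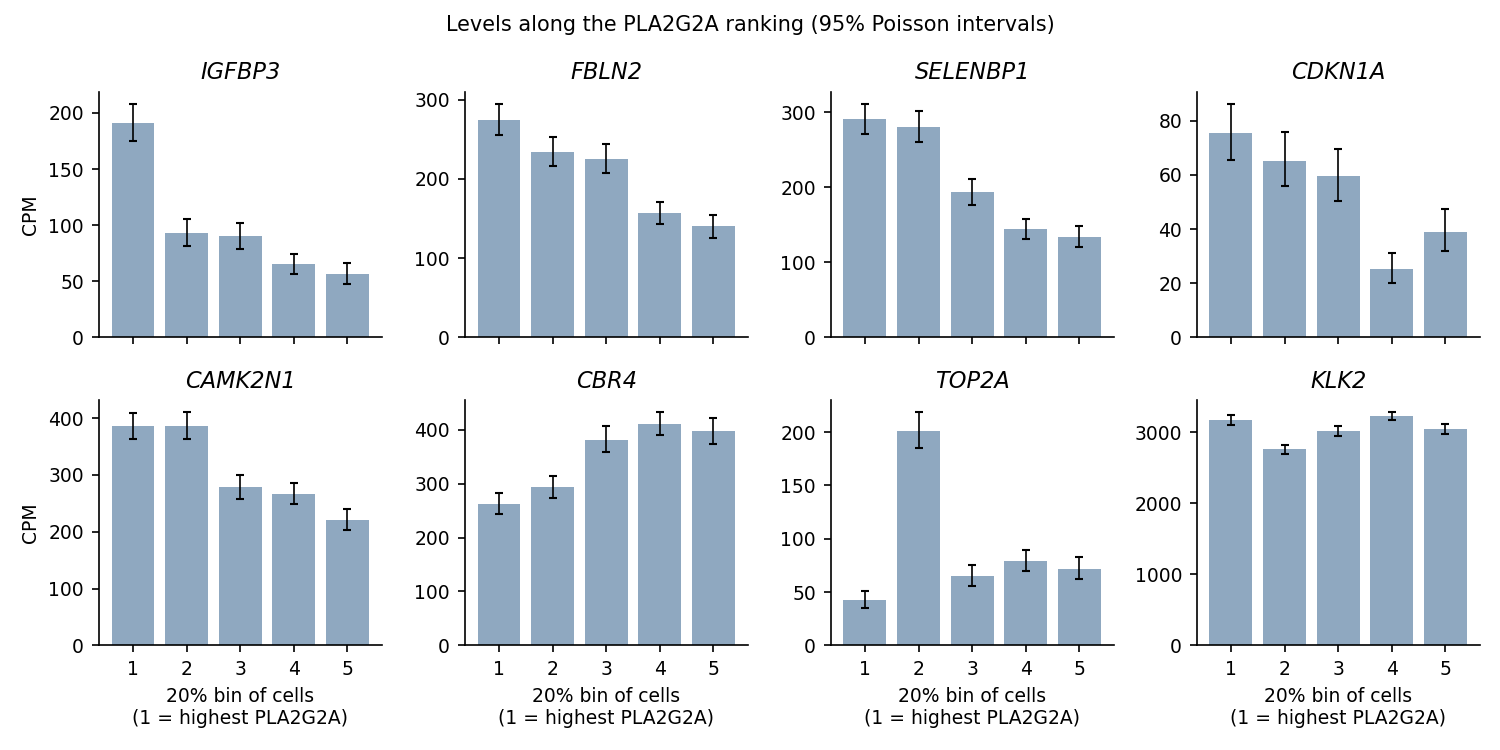
Level in CPM of 8 genes in bins of 20% of the 816 VCaP-ENZ48 cells, from the highest PLA2G2A share (1) to the lowest (5), with 95% Poisson intervals for counting error. FBLN2 and SELENBP1 fall along the ranking, CBR4 is lowest in the first bin, TOP2A peaks in the second at 201 CPM and KLK2 stays between 2761 and 3228 CPM.

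The same split was made in the other libraries, which share no kept cells with VCaP-ENZ48. PLA2G2A was sparse there, so the top 20% of cells, in which every cell had a PLA2G2A UMI with a median of 1, was set against all cells without one, a choice made after seeing the data. In VCaP parental, 199 cells stood against 766, with PLA2G2A at 145 CPM in the first. The median depth was 18472 UMIs in the 199 cells and 17228 in the 766. In VCaP-ENZ48 the PLA2G2A-high cells were instead the shallower ones, with 11800 against 14786 UMIs. The part of depth in these comparisons was not tested. Of 2964 genes, 5 (0.169%) were at least 1.5-fold higher and 1 (0.0337%) lower. Of the 31 genes higher in VCaP-ENZ48, 16 were tested there. PCP4, a calmodulin-binding peptide named after its value was seen, also passed 1.5-fold, which is 6.25% of these 16 and 20.0% of the 5. It was at 132 against 78.3 CPM in VCaP parental and at 609 against 392.1 CPM in VCaP-ENZ48. A ratio above 0 was found for 14 of the 16, against 54.7% of the 2423 genes tested in both. None of the 9 lower genes passed 1.5-fold there, and 6 of 8 tested had a ratio below 0, against 45.3% of all. REG4 had 33 UMIs against 3, or 8.41 against 0.207 CPM. With the bottom 40% of cells taken by file order among ties, as in VCaP-ENZ48, 3 genes were higher (0.102%) and 1 lower (0.0338%), PCP4 again among the 3. Those low cells had a median of 14721 UMIs.

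In LNCaP-ENZ168, 148 cells stood against 587 without PLA2G2A, with PLA2G2A at 355 CPM in the first, where 1 cell held 108 of the 447 UMIs of the library. The 148 cells had a median depth of 6619 UMIs and the 587 cells one of 5976. Of 3866 genes, 26 (0.673%) were at least 1.5-fold higher and 21 (0.543%) lower. Of the 31 genes, 21 were tested, 17 had a ratio above 0 against 49.1% of the 2341 genes tested in both, and 4 passed 1.5-fold, which is 19.05% of the 21 and 15.4% of the 26. These were CAMK2N1 (389 against 198 CPM), CDKN1A (98.4 against 61.9 CPM), MYRIP (103 against 63.6 CPM) and OPRK1 (181 against 119 CPM). Of the 9 lower genes, TOP2A passed 1.5-fold downward there, with 93.5 against 169 CPM. The choice of low group decided most of these. With the bottom 40% taken by file order among ties, 297 cells without PLA2G2A, 45 genes were higher (1.16%) and 31 lower (0.802%). The 297 cells had a median depth of 4818 UMIs. CAMK2N1 then passed 1.5-fold again (0.96) and H2AC6 did so as well (0.60), while CDKN1A (0.42), MYRIP (0.55) and OPRK1 (0.53) did not. TOP2A was at -0.16 (-0.52 to 0.20) in that split, and none of the 9 lower genes passed it. REG4 had no UMI in the 148 cells and 19 in the others. The cytosolic ribosomal protein genes had medians of -0.03 in VCaP parental and -0.01 in LNCaP-ENZ168.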

How the data were processed

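Single cells were prepared by Drop-seq, with 1 library for each of VCaP-ENZ48, VCaP parental and LNCaP-ENZ168. Reads were aligned by the authors with STAR (GRCh38, Gencode annotation), and the Drop-seq tools were run at default settings for 1000 expected cells. What they deposited are unnormalized UMI counts for each gene and barcode. The paper describes removing poor-quality cells by detected genes, molecules and mitochondrial reads. Whether that filter was applied to the deposited counts is not stated. Files held 14544855, 19533049 and 6513423 UMIs, in the order above.

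Cells were kept with at least 4000 UMIs, 300 genes and at most 25% mitochondrial UMIs. They were ranked by PLA2G2A UMIs over all UMIs, ties in file order, and the top 20% was compared with the bottom 40%. Doublets were not identified or removed. UMIs were summed per group, scaled to CPM and compared as log2 of CPM + 1 for genes other than PLA2G2A averaging 50 CPM or more over the groups. Intervals are exact (Poisson for sums, conditional for ratios of CPM, Clopper-Pearson for shares). A count of 0 was given an upper limit of 3 counts. For shares, cells were thinned without replacement to 4000 UMIs. A count ratio past 1.5-fold is a size, not a test, and cells were not treated as replicates.

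In all, 39 gene lists were used, and members and lists were chosen with earlier results of these data known. Named genes were PLA2G2A, the 15 highest and 15 lowest ratios, per list the 2 tested members with the highest mean and the 2 with the ratio furthest from 0, and KLK2, KLK3, ERG, REG4, A1CF, CCN3, NPY, MKI67, TOP2A and MALAT1. Gene coordinates were read from Gencode on GRCh38, in a release after that of the authors, and promoter sequences are from RefSeq. Alternatives covered ranking, ties, depth, filters, group size, weights, scaling, expression minimum, pseudocount and fold. Some genes that the rule names are not reported here. The steps were tested on simulated data. Scaling factors came from edgeR 4.0.16 in R 4.3.3. All else was run in Python 3.11.15 (scipy 1.17.1, numpy 2.4.6, matplotlib 3.10.9, pandas 2.3.3).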

Additional observations from a re-analysis of the deposited data

How the results depend on the processing

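Depth and the number of cells limit these counts, and 1 library allows no statement on replicates. No paired analysis was possible because both groups are cells of a single library. The 31 higher and 9 lower genes became 74 and 62 when cells were thinned to 4000 UMIs before summing, and 94 and 50 without barcodes ending in N, which may each join several beads. In these settings the groups held fewer UMIs. Comparing other shares of cells gave 65 higher genes (top 10%), 49 higher and 25 lower (bottom 20%), and 17 and 2 (top 40%). A minimum of 20 CPM gave 107 and 41, a minimum of 100 CPM 19 and 3, and a 2-fold limit 6 and 0. Both trimmed mean and median-of-ratios scaling left 19 higher. The lower genes numbered 1 when cells were ranked after thinning (6 with a second random seed), 5 without the most cycling 20% of cells, 16 with equal weight of cells and 22 with totals free of mitochondrial, ribosomal protein and PLA2G2A UMIs, and the cause was not tested. Ties in reverse order, barcodes 1 base apart and the pseudocount moved neither count. Ranking within 5 depth bins gave 35 and 9, with 29 of the 31 and 8 of the 9 genes among them. TOP2A reversed to 0.055 (log2) when cells were ranked after thinning with the first seed (-1.61 with the second), 0.46 without barcodes ending in N, 0.24 without the most cycling 20% and 0.67 with the top 40%. MT1X reversed to 0.0053 without barcodes ending in N. Under all settings, 2195 ratios of named genes stayed within their counting interval, 484 moved out of it and 5 reversed. Reversals were counted only for the 31 higher and 9 lower genes, and all 5 were of TOP2A and MT1X. Sign changes of other genes are among those that moved, such as HMGB2 and NPY at 0.77 and 1.08 without barcodes ending in N. MKI67 went from -1.33 to 0.71 without the most cycling 20%, and CCL2 from 3.72 to -0.34 without the highest cell of each group. Leaving out cells with at least 3 REG4 UMIs, or the highest cell for each gene, was chosen after seeing the data.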

Other observations

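Some values fall outside the comparison of the groups. The 155 barcodes of VCaP-ENZ48 left out for depth had 269 PLA2G2A UMIs among 433250, or 621 CPM (95% interval 549 to 699.7), beside 582 CPM in the kept cells, and 1 of them held 37. TGM4, a transglutaminase secreted by the prostate and named after its value was seen, had 76 UMIs in PLA2G2A-high cells against 8 in PLA2G2A-low cells. Of the 76, 71 were in the 19 high cells with at least 3 REG4 UMIs, and 1 cell held 33. NPY, a secreted neuropeptide, was at 121, 76.8, 70.2, 95.1 and 196 CPM from the first to the last bin of 20% of cells in the ranking and at 2212 CPM in VCaP parental. A1CF, an RNA-binding cofactor of mRNA editing in the gut, was at 32.2 CPM (25.9 to 39.7) in the high and 26.1 CPM (22.1 to 30.5) in the low group. ID3, an inhibitor of helix-loop-helix factors named after its value was seen, was at 680.1 against 438 CPM (log2 ratio 0.63, 0.55 to 0.72) in VCaP-ENZ48. In VCaP parental cells with PLA2G2A its log2 ratio over cells without it was -0.20 (-0.29 to -0.12), and in LNCaP-ENZ168 it was 0.43 (0.24 to 0.62). The difference between libraries was not tested.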
